A study of Brassica napus with 12 samples.

Results

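Aquaporins are small membrane channels that let water, and in some members small solutes, cross cell membranes. The aquaporin genes of Brassica napus (oilseed rape) described here are the rows of the deposited gene table whose Swissprot protein name contains the word aquaporin: 137 of 100919 genes. B. napus carries an A and a C genome, and 68 of these genes lie on A chromosomes, 68 on C chromosomes and 1 on an unplaced sequence. Each gene is called a copy below and is named by its best-matching protein, in Arabidopsis for all but 3, together with its chromosome. The family holds 22 PIP1, 29 PIP2, 10 TIP1, 13 TIP2, 16 other TIP (TIP3, TIP4 and TIP5), 38 NIP and 9 SIP copies. By the deposited annotation 135 of the 137 carry the major intrinsic protein domain.

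PIPs (plasma membrane intrinsic proteins) carry water over the plasma membrane: PIP2 members are efficient water channels by themselves, while PIP1 members often reach the plasma membrane in complexes with PIP2. TIPs (tonoplast intrinsic proteins) sit in the membrane of the vacuole and are most abundant where cells enlarge. NIPs (nodulin 26-like intrinsic proteins) pass solutes such as boric acid, and SIPs (small basic intrinsic proteins) reside in the endoplasmic reticulum.

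RNA was sequenced from whole apical meristems at the change from inflorescence primordium differentiation to the start of floral primordia, in field-grown, untreated plants. The 4 groups have 3 libraries each: ZS11, labelled wild type; SX3, labelled as a natural mutant; and Zlike and Slike, individuals of the second backcross generation (BC2) between them with contrasting architecture, whose genotype is labelled WT and mutant. The labels do not say whether the 3 libraries of a group came from separate plants, so p-values measure the spread between these libraries only, which may be technical. No batch is given. Libraries held 13445924 to 17778731 counts, so that 3 counts, the limit that a count of 0 allows, correspond to 0.169 to 0.223 CPM (counts scaled to a common library size). STM, the meristem homeobox gene, was present in every group: its A09 copy had means of 134, 55.5, 67.2 and 55.3 CPM in ZS11, SX3, Zlike and Slike. A list of 22 shoot meristem genes summed to 728 to 740 CPM in ZS11, 524 to 536 in SX3, 479 to 486 in Zlike and 388 to 404 in Slike.

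Expression in the apex was concentrated in few copies. Of the 137 copies, 33 had no count in any library, 52 never passed 3 counts in a library, 74 reached a mean of 1 FPKM (fragments scaled by gene length and library total) in at least 1 group and 25 reached 100 FPKM. The 25 were 9 PIP1, 6 PIP2, 7 TIP1 and 3 TIP2 copies. No copy of TIP3-1 or TIP3-2, the channels of seed storage vacuoles, reached 1 FPKM in any group, nor did any copy of TIP1-3, TIP5-1, NIP4-1, NIP4-2 or NIP7-1, which are pollen or anther types in Arabidopsis. Anther and pollen markers were nonetheless counted in Slike: 12 of 16 marker genes had counts there, with a sum of 25.8 to 27.8 CPM, against sums of 0 to 0.637 CPM in the other groups. TIP2-2 and TIP2-3 were also below 1 FPKM throughout.

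Summed over all copies, aquaporin transcripts were most abundant in ZS11. The sum was 9698 ± 84.5 FPKM in ZS11, 6594 ± 78.7 in SX3, 7079 ± 97.6 in Zlike and 6304 ± 9.16 in Slike (SD, n = 3 libraries each). SX3 thus held 68.0% of the ZS11 level, and Slike 89.1% of the Zlike level. TIP1 made up 49.0 ± 0.34% of the family in ZS11, 47.1 ± 0.47% in SX3, 47.0 ± 0.33% in Zlike and 45.8 ± 0.16% in Slike. FPKM values here are scaled by the total count of a library, and the summed values carry no test.

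In FPKM, ZS11 had the highest mean sum in every subfamily but PIP2. PIP1 summed to 2557 ± 28.5 FPKM in ZS11, 1667 ± 12.8 in SX3, 1791 ± 27 in Zlike and 1634 ± 3.41 in Slike. PIP2 sums lay closer together, at 1196 ± 12.1, 1168 ± 17.1, 1238 ± 19.8 and 1187 ± 5.42 FPKM in the same order. Their ranking turned with the scale: in CPM with TMM scaling the PIP2 sums were 1257, 1213, 1235 and 1200, with ZS11 highest. TIP1 summed to 4754 ± 73.5 FPKM in ZS11, 3105 ± 58.9 in SX3, 3325 ± 49.8 in Zlike and 2885 ± 14.2 in Slike.

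In relative terms TIP2 had the lowest SX3 sum of the 7 classes, at 51.8% of ZS11: 976 ± 21.7 FPKM in ZS11, 505 ± 14.7 in SX3, 576 ± 14.97 in Zlike and 443 ± 7.63 in Slike. The other TIPs, nearly all of it TIP4-1, went from 85.6 ± 1.31 FPKM in ZS11 to 46.9 ± 0.502 in SX3, 42.5 ± 1.57 in Zlike and 42.9 ± 0.502 in Slike. SIP sums were 102 ± 3.98, 79.0 ± 2.04, 89.5 ± 3.29 and 92.3 ± 6.17 FPKM, and NIP sums were 27.4 ± 0.766, 23.1 ± 2.15, 18.5 ± 0.462 and 20.2 ± 1.10 FPKM, in the order ZS11, SX3, Zlike, Slike. In PIP1, TIP1 and TIP2 the 3 ZS11 libraries lay above all other libraries, and Slike was lowest on average.

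**Figure D1:**
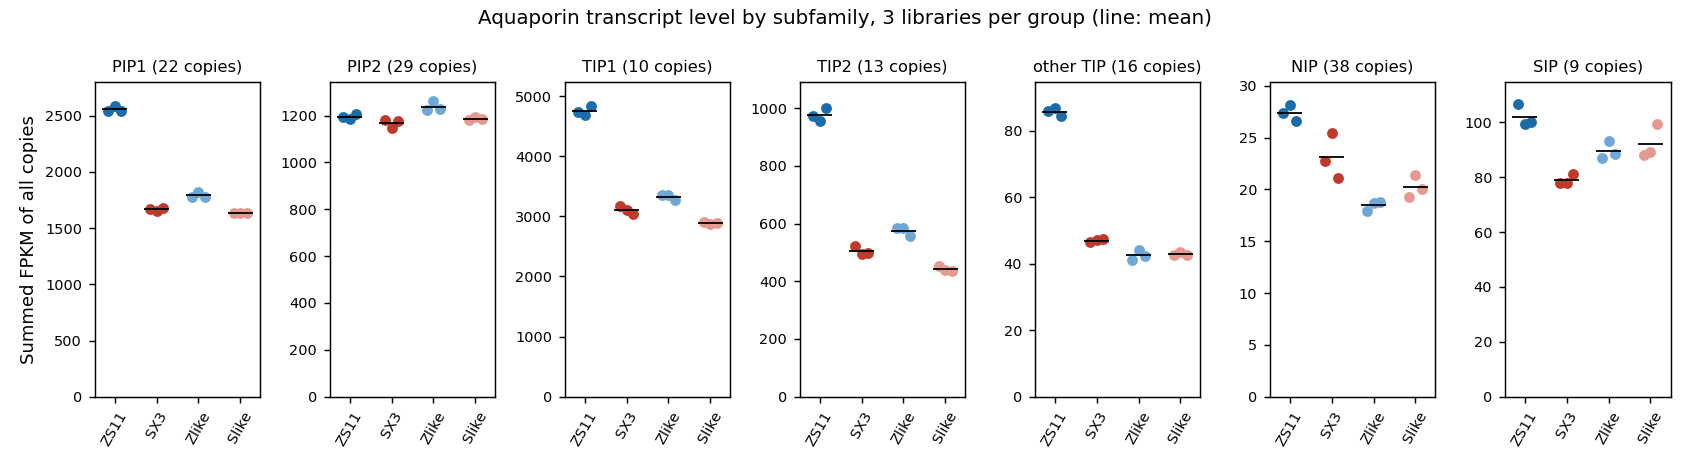
Summed FPKM of all copies of each subfamily (y axis, from 0, own scale per panel) in each library (points) of the 4 groups (x axis), with the group mean as a line. ZS11 sits above the other groups for PIP1 (mean 2557 FPKM), TIP1 (4754 FPKM) and TIP2 (976 FPKM), while the 4 PIP2 means lie between 1168 and 1238 FPKM.

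Other tissue markers moved between the groups as well. Summed over 78 genes of chlorophyll a-b binding proteins, green tissue markers reached 8392 to 8415 CPM in ZS11, 2929 to 2980 in SX3, 4192 to 4346 in Zlike and 4749 to 4783 in Slike. Phloem markers (61 genes) summed to 313 to 330 CPM in ZS11, 242 to 244 in SX3, 257 to 262 in Zlike and 215 to 221 in Slike, and xylem and secondary wall markers (60 genes) to 117 to 121, 158 to 172, 105 to 107 and 111 to 118 CPM. Members of a list did not all move with its sum. SUC2 of the phloem list was higher in SX3 than in ZS11. Its means in ZS11 and SX3 were 1.60 and 3.08 CPM (C05), 0.405 and 1.31 (A09), 0.0428 and 0.477 (A07), and 0 and 0.200 (C07). CESA7 (A02) of the xylem and secondary wall list had 6.35 and 3.90 CPM. Between 69 and 73 of the 78 green tissue genes had counts in each group, and 4 had none anywhere. The part of these markers in the aquaporin differences was not tested. In bulk tissue, fewer cells of a type and less RNA per cell cannot be told apart.

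The comparison of SX3 with ZS11 asks how the 2 parental lines differ. It was dominated by lower aquaporin levels in SX3: of 72 copies with enough counts to test, 50 were lower and 13 higher at an adjusted p below 0.05. These 63 calls were 87.5% of the copies tested, against 69.3% of all 50035 genes tested. Lower calls were made for 35.9% and higher calls for 33.4% of all genes. Here and below, all genes were not matched to the copies for expression level, and small changes are easier to call at high levels. At 2-fold or more, 22 copies were lower and 4 higher, where 15.8% and 10.5% of all genes were. The median log2 change (SX3 over ZS11) of the tested copies was -0.59, and that of all tested genes was -0.008. Of the 65 copies not tested, 33 had no count at all.

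In every subfamily more copies were lower in SX3 than higher. Lower and higher calls numbered 14 and 3 of 18 tested in PIP1, 11 and 6 of 22 in PIP2, 6 and 0 of 7 in TIP1, 5 and 1 of 6 in TIP2, 2 and 0 of 2 in the other TIPs, 7 and 3 of 10 in NIP and 5 and 0 of 7 in SIP. The median log2 change was -0.60 in PIP1, -0.15 in PIP2, -0.25 in TIP1, -1.11 in TIP2, -0.81 in NIP and -0.37 in SIP.

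**Figure D2:**
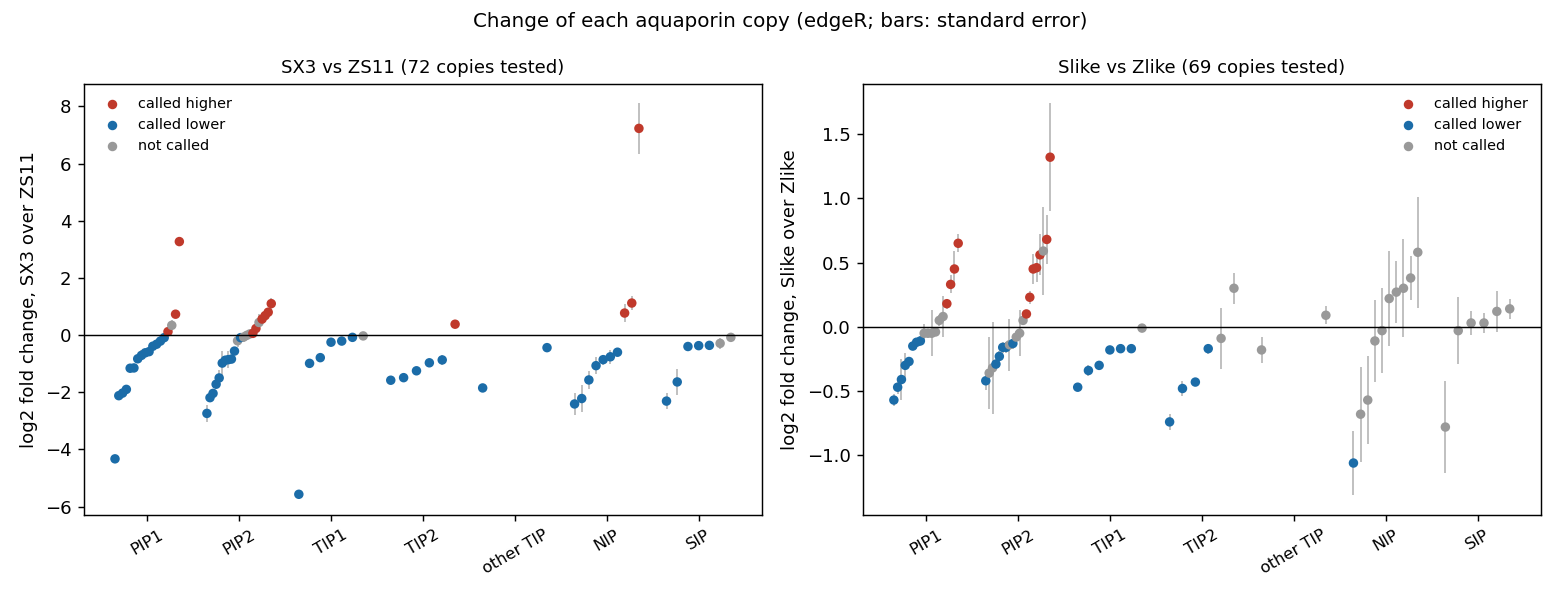
Log2 fold change with its standard error (y axis) for each tested aquaporin copy, grouped by subfamily (x axis) and sorted within it, for SX3 over ZS11 (left, 72 copies) and Slike over Zlike (right, 69 copies, a narrower y scale); colour marks the call at an adjusted p below 0.05. Left, 50 copies were called lower and 13 higher, reaching -5.57 for TIP1-1 A04; right, 25 were called lower and 11 higher, with 1 copy at least 2-fold lower and 1 at least 2-fold higher.

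PIP1 copies of several names were lower in SX3. PIP1-4 A09 (BnaA09G0003800ZS; chromosome A09, 273964 to 275245, minus strand, in the coordinates of the deposited table, whose genome build is not given in the sources used here) had 87.1, 93.0 and 89.5 FPKM in the 3 ZS11 libraries and 3.55, 5.67 and 4.46 FPKM in SX3. Zlike had 62.4, 61.0 and 56.0 FPKM, and Slike 42.8, 41.8 and 44.9 FPKM. No 2 groups overlapped, in the order ZS11, Zlike, Slike, SX3. The SX3 level was 20.1-fold lower than the ZS11 level (log2 change -4.33, SE 0.08, adjusted p = 3.89e-92). PIP1.1 A04 (BnaA04G0010500ZS), which is named by a protein of the broad bean Vicia faba, had 33.1, 33.5 and 33.4 FPKM in ZS11 and 6.75, 8.03 and 8.51 FPKM in SX3, without overlap (log2 change -2.12, SE 0.08, adjusted p = 8.89e-53).

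PIP1-4 A05 (BnaA05G0056700ZS), the PIP1 copy with the highest mean FPKM over the 12 libraries but not in SX3, had means of 512 ± 9.08 FPKM in ZS11, 234 ± 8.47 in SX3, 350 ± 7.39 in Zlike and 289 ± 4.58 in Slike, a log2 change of -1.16 (SE 0.03, adjusted p = 3.84e-76) in SX3. Its deposited length, 576 bases, is short for the family and raises its FPKM. PIP1-2 A04 (BnaA04G0290300ZS) had 411 ± 6.74, 273 ± 5.98, 229 ± 3.90 and 220 ± 2.57 FPKM in ZS11, SX3, Zlike and Slike, and PIP1-4 A03 (BnaA03G0280400ZS) had 356 ± 1.24, 277 ± 3.99, 257 ± 7.37 and 232 ± 2.54 FPKM. Both were lower in SX3, by log2 changes of -0.62 and -0.39. A further PIP1-4 copy of the same chromosome A09 (BnaA09G0012100ZS) had 135 ± 3.32 FPKM in ZS11 and 129 ± 4.39 in SX3; its log2 change of -0.09 (adjusted p = 0.0116) lost its call with upper-quartile scaling, with DESeq2, and without ZS11 replicate 2 or SX3 replicate 1.

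The pair of PIP1-3 copies moved in opposite directions. PIP1-3 A09 (BnaA09G0695800ZS; chromosome A09, 64480339 to 64481411, minus strand) had 10.3, 10.7 and 9.27 FPKM in ZS11 and 95.8, 102 and 102 FPKM in SX3, and 27.6, 26.8 and 28.7 FPKM in Zlike and 44.6, 41.5 and 43.8 FPKM in Slike. It was 9.64-fold higher in SX3 (log2 change 3.27, SE 0.07, adjusted p = 3.08e-85), and every group stood apart from the others. PIP1-3 A10 (BnaA10G0003900ZS; chromosome A10, 223587 to 224626, plus strand) had 181, 181 and 173 FPKM in ZS11, 52.4, 43.5 and 39.3 FPKM in SX3, 162, 174 and 170 FPKM in Zlike and 113, 111 and 115 FPKM in Slike. It was 4.08-fold lower in SX3 (log2 change -2.03, SE 0.05, adjusted p = 1.80e-70). With the counts of the PIP1-3 copies added, the log2 change was 0.10 (SE 0.04, adjusted p = 0.0056). This direction turned with the scale: the summed FPKM of the PIP1-3 copies was 188 ± 5.44 in ZS11 and 145 ± 3.33 in SX3, or 77.1% of the ZS11 level, where the deposited length of the A10 copy is 474 bases and that of the A09 copy 783.

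PIP2 held 6 of the 13 copies that were higher in SX3. These were 27.3% of the 22 PIP2 copies tested, against 33.4% of all genes. PIP2-7 C01 (BnaC01G0037400ZS) had 72.7, 66.9 and 64.7 FPKM in ZS11 and 127, 117 and 121 FPKM in SX3, a log2 change of 0.80 (SE 0.04, adjusted p = 2.78e-40). PIP2-7 C07 (BnaC07G0524500ZS) rose from 56.6 ± 1.44 to 92.5 ± 0.810 FPKM (log2 change 0.68, SE 0.04, adjusted p = 2.69e-36). PIP2-6 A03 (BnaA03G0189600ZS), with 50.9 ± 2.58 FPKM in ZS11 and 76.7 ± 2.03 in SX3, was higher by 0.56 on the log2 scale, and PIP2-6 C03 (BnaC03G0223000ZS), with 41.1 ± 0.847 and 49.5 ± 1.26 FPKM, by 0.23. PIP2-5 C06 (BnaC06G0191300ZS) went from 2.84 ± 0.483 FPKM in ZS11 to 6.16 ± 0.691 in SX3, a log2 change of 1.10 (SE 0.18, adjusted p = 2.91e-08).

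The most abundant PIP2 copies changed little. PIP2-7 A08 (BnaA08G0131100ZS) had 222 ± 4.19 FPKM in ZS11 and 213 ± 3.66 in SX3; its log2 change of -0.09 (adjusted p = 0.000518) was not called with upper-quartile scaling. PIP2-7 C03 (BnaC03G0740700ZS) had 180 ± 2.08 and 191 ± 5.95 FPKM, and its call as higher (log2 change 0.06, adjusted p = 0.0487) was lost in 9 of the alternatives, among them DESeq2 and 5 that left out a library: ZS11 replicate 1, 2 or 3 or SX3 replicate 1 or 3. By contrast PIP2-7 A01 (BnaA01G0032400ZS) had 182, 184 and 194 FPKM in ZS11 and 106, 108 and 105 FPKM in SX3, with a log2 change of -0.84 (SE 0.03, adjusted p = 4.07e-51).

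PIP2-1 and PIP2-2, water channels of root and shoot in Arabidopsis, were low in the apex and, with all copies of a type added, lower in SX3 by log2 changes of -1.52 and -1.51. PIP2-2 C04 (BnaC04G0094200ZS) had 39.3, 33.6 and 38.3 FPKM in ZS11 and 7.86, 11.8 and 8.21 in SX3 (log2 change -2.04, SE 0.09, adjusted p = 2.56e-46), with no overlap. PIP2-1 A09 (BnaA09G0495900ZS) had 11.5, 11.2 and 9.59 FPKM in ZS11 and 3.65, 2.57 and 3.74 in SX3 (log2 change -1.72, SE 0.15, adjusted p = 9.13e-21).

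In the vacuolar membrane, TIP1-1 A04 had the most negative log2 change of the 72 copies tested. This copy (BnaA04G0236300ZS; chromosome A04, 22169224 to 22170554, plus strand) encodes a homologue of the main tonoplast water channel of Arabidopsis. It had 1010, 1011 and 1037 FPKM in ZS11, 24.1, 22.1 and 20.04 FPKM in SX3, 524, 526 and 506 FPKM in Zlike and 371, 376 and 371 FPKM in Slike. The 4 groups were fully separate, and the SX3 level was 47.5-fold lower than the ZS11 level (log2 change -5.57, SE 0.03, adjusted p = 1.25e-153).

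The C04 copy of TIP1-1 (BnaC04G0551600ZS; chromosome C04, 66876391 to 66877708, plus strand) had 911, 862 and 925 FPKM in ZS11, 886, 872 and 861 FPKM in SX3, 525, 529 and 530 FPKM in Zlike and 528, 519 and 530 FPKM in Slike. Here the parental libraries overlapped (log2 change -0.08, SE 0.02, adjusted p = 0.000315, not called with upper-quartile scaling), and the Zlike and Slike libraries overlapped too. The A04 copy supplied 53.1% of the summed FPKM of this A04 and C04 pair in ZS11, 2.47% in SX3, 49.5% in Zlike and 41.5% in Slike. Left without the A04 copy, the TIP1 sum was 3735 ± 59.4 FPKM in ZS11 and 3083 ± 56.9 in SX3, so that SX3 held 82.5% of the ZS11 level, compared with 65.3% for all TIP1 copies. Reads of near-identical copies may be split between them, and how reads with several matches were counted is not given in the sources used here. The third TIP1-1 copy, on C03 (BnaC03G0205700ZS), had 245 ± 5.02 FPKM in ZS11, 127 ± 5.50 in SX3, 236 ± 3.59 in Zlike and 208 ± 14.7 in Slike, a log2 change of -0.99 in SX3. With all TIP1-1 copies added, the log2 change was -1.09 (SE 0.01, adjusted p = 2.5e-115).

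TIP1-2, another abundant tonoplast water channel, changed less. The copy with the highest mean level of the family over the 12 libraries, TIP1-2 C02 (BnaC02G0454300ZS), had 1102 ± 13.4 FPKM in ZS11, 972 ± 8.55 in SX3, 931 ± 27.2 in Zlike and 825 ± 11.2 in Slike (log2 change -0.21 in SX3). TIP1-2 A02 (BnaA02G0338000ZS) had 774 ± 13.9, 459 ± 12.6, 738 ± 14.7 and 652 ± 7.03 FPKM, with a log2 change of -0.79 (SE 0.02, adjusted p = 1.5e-71) in SX3.

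TIP2-1, which also passes ammonia in Arabidopsis, was lower in SX3 in all but 1 of its tested copies. TIP2-1 C01 (BnaC01G0423400ZS) had 504, 481 and 515 FPKM in ZS11, 265, 259 and 258 FPKM in SX3, 333, 330 and 318 FPKM in Zlike and 249, 243 and 236 FPKM in Slike. The groups were separate, with a log2 change of -0.97 (SE 0.03, adjusted p = 1.11e-71) in SX3. TIP2-1 A05 (BnaA05G0392800ZS) had 279 ± 4.74 FPKM in ZS11 against 120 ± 6.68 in SX3, 128 ± 3.22 in Zlike and 114 ± 3.72 in Slike (log2 change -1.25, SE 0.03, adjusted p = 2.49e-72).

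TIP2-1 C03 (BnaC03G0417000ZS) fell from 99.1, 103 and 105 FPKM in ZS11 to 36.5, 36.2 and 32.7 in SX3 (log2 change -1.58, SE 0.05, adjusted p = 4.09e-63). TIP2-1 A03 (BnaA03G0345300ZS) went the other way, from 53.9, 54.9 and 56.5 FPKM to 78.1, 69.6 and 71.9 (log2 change 0.38, SE 0.05, adjusted p = 3e-11). Of the other TIPs, the 2 TIP4-1 copies were expressed. TIP4-1 A04 (BnaA04G0171100ZS) had 47.2 ± 0.640 FPKM in ZS11 and 35.5 ± 0.649 in SX3, and TIP4-1 C04 (BnaC04G0468500ZS) 38.3 ± 1.82 and 10.8 ± 0.381 FPKM; their log2 changes were -0.44 and -1.85.

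NIP copies were far less abundant, at most 9.10 FPKM on average in a group. NIP6-1, a boric acid channel of young shoot tissue in Arabidopsis, was lower in SX3: the C06 copy (BnaC06G0454000ZS) had 9.56, 9.61 and 8.13 FPKM in ZS11 and 6.63, 6.24 and 5.76 in SX3 (log2 change -0.60, SE 0.13, adjusted p = 2.6e-05), and the A07 copy (BnaA07G0386200ZS) had 5.74 ± 0.612 and 3.28 ± 0.410 FPKM (log2 change -0.86). NIP1-2 C07 (BnaC07G0426700ZS) had 2.04 ± 0.183 FPKM in ZS11 and 0.979 ± 0.255 in SX3 (log2 change -1.07, SE 0.30, adjusted p = 0.00092). NIP5-1, the boric acid uptake channel of Arabidopsis roots, split between its copies: the A02 and C02 copies were lower in SX3 (log2 changes -0.76 and -1.57) and the A03 and C03 copies higher (0.77 and 1.12), with no group mean of any of them above 3.56 FPKM.

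NIP2-1 A05 (BnaA05G0101200ZS), whose Arabidopsis relative is a lactic acid channel induced by low oxygen, had no count in any ZS11 library. SX3 had 1.19, 2.00 and 1.09 FPKM, Zlike 0.245, 0.0751 and 0.0847 FPKM, and Slike 1.81, 0.743 and 1.35 FPKM. Against a floor of 3 counts per library in ZS11, SX3 was at least 6.4-fold higher (adjusted p = 6.69e-13). Among SIPs, SIP1-1 C05 (BnaC05G0556000ZS) had 29.3 ± 0.336 FPKM in ZS11 and 22.8 ± 0.706 in SX3, SIP2-1 A07 (BnaA07G0197200ZS) 26.6 ± 1.51 and 21.2 ± 1.60 FPKM, and SIP2-1 C06 (BnaC06G0201400ZS) 25.2 ± 2.69 and 20.01 ± 1.20 FPKM. Those 3 log2 changes were -0.40, -0.36 and -0.37.

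A few pairs of corresponding A and C copies also changed in opposite directions. Copies of the same protein name on an A and a C chromosome were paired where at least 5 protein names were shared among the 20 genes on either side, which gave 55 pairs. Some pairings of neighbouring copies were ambiguous, because another copy shared as many names. Those of PIP2-2 on A05 and C04 are among them, and by strand and length these copies would pair the other way. Both copies were tested in SX3 against ZS11 in 27 pairs: both were lower in 13, both higher in 2, opposed in 3, and in 9 only 1 copy was called. Of all single genes tested, 35.9% were lower and 33.4% higher. Pairs over the whole table were not counted, so these numbers do not set aquaporin pairs apart from others. The copies differed by at least 1 on the log2 scale in 9 of the 27. The opposed pairs were PIP2-7 A01 and C01, PIP2-7 A08 and C03, and TIP2-1 A03 and C03, of which the second rests on the 2 small changes described above. The A copy supplied 73.3% of the summed FPKM of PIP2-7 A01 and C01 in ZS11, 46.6% in SX3, 72.0% in Zlike and 64.3% in Slike. For TIP2-1 A03 and C03 these shares were 35.01%, 67.6%, 49.8% and 54.2%. Over the whole family, A copies held 53.0 ± 0.22% of the summed FPKM in ZS11, 42.7 ± 0.073% in SX3, 52.4 ± 0.096% in Zlike and 51.2 ± 0.23% in Slike, and without TIP1-1 A04 and PIP1-4 A09 (BnaA09G0003800ZS) 46.9%, 42.4%, 48.2% and 47.7%.

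**Figure D3:**
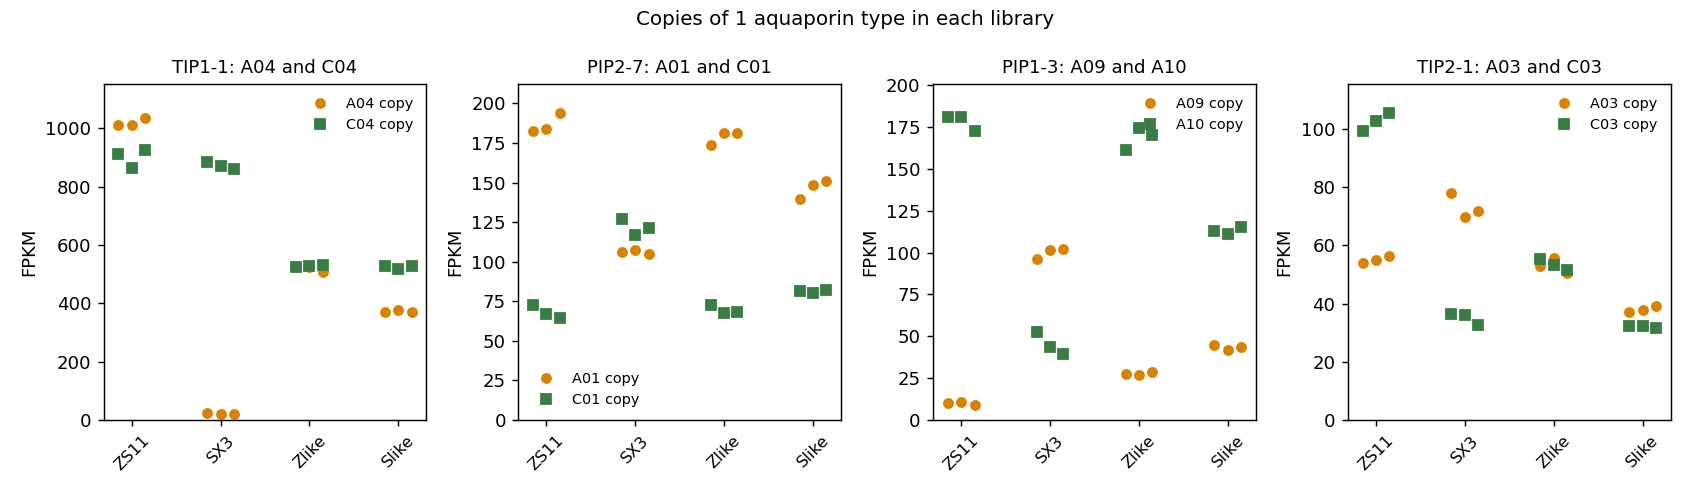
FPKM (y axis, from 0) of 2 copies of one type in each library of the 4 groups (x axis); circles and squares are the copies named in each panel. TIP1-1 A04 drops to 20.04 to 24.1 FPKM in SX3 while the C04 copy stays at 861 to 886 FPKM, and the 2 copies shown for PIP2-7, PIP1-3 and TIP2-1 exchange rank between ZS11 and SX3.

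Genes beside the 2 copies with the strongest decreases were mostly lower too. Of the 20 nearest tested genes around TIP1-1 A04 (10 on each side, aquaporins left out), 19 were lower in SX3 than in ZS11, 16 of them at least 2-fold, with a median log2 change of -3.13. Around PIP1-4 A09 (BnaA09G0003800ZS), 14 of 20 were lower, 12 at least 2-fold, with a median of -1.88. Around the other 8 copies that were lower in SX3 by at least 2 on the log2 scale, the medians ran from -0.46 to 0.29: around PIP1-3 A10, 12 of 20 were lower and 2 higher (median -0.41), and around PIP2-2 C04 (BnaC04G0094200ZS) 6 were lower and 10 higher (median 0.13). At the paired C04 copy of TIP1-1, 12 of 20 neighbours were higher and 1 lower (median 0.52). The median was 0.12 around PIP1-3 A09, 0.01 around PIP2-7 C01 and 0.06 around TIP2-1 C03. The part of the chromosome segment, and of sequence differences from the ZS11-named reference genes, was not tested.

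Slike against Zlike compares the backcross plants labelled mutant with those labelled WT. Fewer copies changed here, and by less: of 69 tested, 25 were lower and 11 higher in Slike. These 36 calls were 52.2% of those tested, against 27.2% of all 49526 genes, where 13.4% were lower and 13.8% higher. Among the copies tested, 1 was at least 2-fold lower, NIP6-1 C06, and 1 at least 2-fold higher, PIP2-2 A05 (BnaA05G0081400ZS), named for that after its value was seen; NIP2-1 A05, with the values given above, had too few counts to be tested here. Among all genes 0.61% were 2-fold lower and 3.6% 2-fold higher. The median log2 change (Slike over Zlike) was -0.08 for the tested copies and -0.001 for all genes.

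By share of the copies tested, lower calls in Slike were most frequent in TIP1 (85.7%) and TIP2 (66.7%). The shares were 44.4% in PIP1 and 30% in PIP2, against 13.4% of all genes. TIP1 had 6 lower and 0 higher calls of 7 tested, and TIP2 4 and 0 of 6. Not called in TIP2 were TIP2-1 C05 (log2 change 0.30, adjusted p = 0.0545) and TIP2-1 A01 (-0.09, adjusted p = 0.821). PIP1 had 8 and 4 of 18 (median log2 change -0.05), PIP2 6 and 7 of 20, and NIP 1 and 0 of 10. By DESeq2, 8 PIP1 copies were called in either direction, where edgeR called 12. The TIP1 and TIP2 counts, 6 and 4, were the same by both. None of the 2 other TIP and 6 SIP copies tested passed by edgeR at an adjusted p below 0.05, or by DESeq2; at an unadjusted p below 0.05 there were 0 other TIP and 1 SIP copies. The smallest p among the lower calls belonged to TIP1-1 A04, with the per-library values given above (log2 change -0.47, SE 0.02, adjusted p = 2.49e-35), followed by TIP2-1 C01 (-0.43, SE 0.03, adjusted p = 2.52e-25). PIP1-3 A10 (-0.57), TIP2-1 C03 (-0.74) and TIP1-2 A06 (-0.30) were lower too. TIP1-2 A06 (BnaA06G0389600ZS) had 261, 249 and 253 FPKM in Zlike and 203, 207 and 210 in Slike, without overlap.

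NIP6-1 C06 had 3.14, 3.66 and 2.78 FPKM in Zlike and 1.70, 1.40 and 1.49 FPKM in Slike (log2 change -1.06, SE 0.25, adjusted p = 0.000411). PIP2-2 A05 had 0.533 ± 0.17 FPKM in Zlike and 1.34 ± 0.45 in Slike (log2 change 1.32, SE 0.42, adjusted p = 0.0106). The higher calls with the smallest p were PIP1-3 A09 (0.65, SE 0.07, adjusted p = 3.37e-14), PIP2-7 C01 (0.23), PIP1-2 C03 (0.33), PIP1-4 A09 (BnaA09G0012100ZS; 0.18) and PIP2-5 C06 (0.46, SE 0.11, adjusted p = 0.00074). PIP2-5 C06 had 9.56, 9.31 and 11.9 FPKM in Zlike and 14.0, 13.6 and 14.6 FPKM in Slike. Around TIP1-1 A04, 10 of the 20 neighbouring genes were lower in Slike and 0 higher (median log2 change -0.29), and around PIP1-4 A09 (BnaA09G0003800ZS) 14 and 0 (median -0.46). Around TIP1-1 C04, 8 were higher and 0 lower (median 0.29).

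Copies of one protein name were also added together and tested as types. In SX3 against ZS11, 16 of 23 types were lower and 5 higher, where 37% of the 21275 features summed in this way over the whole table were lower and 34.5% higher. The higher types were NIP2-1, PIP1-3, PIP2-4, PIP2-6 and PIP2-7. Of these, PIP1-3 was higher by counts but lower in summed FPKM, as given above. The log2 changes of the abundant types were -1.09 for TIP1-1, -0.33 for TIP1-2, -0.96 for TIP2-1, -0.65 for PIP1-2, -0.52 for PIP1-4 and 0.04 for PIP2-7. In Slike against Zlike, 9 of 22 types were lower, among them TIP2-1 (-0.38), TIP1-1 (-0.21), TIP1-2 (-0.19) and PIP1-4 (-0.12), and the 2 higher were PIP2-1 (0.66) and PIP2-2 (0.26); of all 21159 summed features 13.7% were lower and 15.2% higher.

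The 2 comparisons were also set against each other by testing the difference of their log2 changes, (Slike over Zlike) minus (SX3 over ZS11). Of 73 copies tested, the difference was positive and called in 42 and negative and called in 14. Together this was 76.7%, against 53.3% of all 51650 genes (30.1% positive, 23.2% negative), and the median difference was 0.52 for the copies and 0.048 for all genes. A difference of at least 1 on the log2 scale was called in 19 copies upward and 3 downward, where all genes had 14.9% and 7.66%. TIP1-1 A04 had the difference with the smallest adjusted p, 5.10 (SE 0.04, adjusted p = 4.83e-124). It was 3.86 (SE 0.10) for PIP1-4 A09 (BnaA09G0003800ZS), 1.45 (SE 0.07) for PIP1-3 A10 and -2.62 (SE 0.10) for PIP1-3 A09.

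Of the 66 copies tested in both comparisons, 18 were lower in both, or 27.3% where 10.7% of the 48315 genes tested in both were, and 3 were higher in both, or 4.55% against 9.09%. Calls in SX3 alone were made for 22 lower copies (33.3% against 23.7% of genes) and 6 higher copies (9.09% against 22.5%). In Slike alone, 4 copies were lower (6.06% against 1.45%) and 2 higher (3.03% against 2.4%), and 2 copies had no call in either (3.03% against 26.9%). Calls of opposite direction were made for 9 copies. Of these, 6 (9.09% of copies, against 1.84% of genes) were lower in SX3 against ZS11 and higher in Slike against Zlike: PIP1-2 C03 (BnaC03G0261800ZS; log2 changes -0.32 and 0.33), PIP1-2 C08 (BnaC08G0403500ZS; -1.15 and 0.45), PIP2-1 A09 (-1.72 and 0.68), PIP2-2 C04 (-2.04 and 0.56), PIP2-7 A08 (-0.09 and 0.10) and PIP1-4 A09 (BnaA09G0012100ZS; -0.09 and 0.18). The other 3 (4.55% against 1.47%) were higher in SX3 and lower in Slike: TIP2-1 A03 (0.38 and -0.48), PIP2-6 C03 (0.23 and -0.42) and PIP2-7 C07 (0.68 and -0.16).

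PIP2-2 C04 had 5.25, 4.30 and 5.36 FPKM in Zlike and 6.85, 8.29 and 6.79 in Slike, with all of these libraries below the lowest ZS11 library, at 33.6 FPKM. PIP2-1 A09 had 3.58, 2.55 and 3.799 FPKM in Zlike and 5.51, 5.60 and 4.76 in Slike; its call in Slike was lost without Zlike replicate 2 (adjusted p = 0.0526). PIP1-2 C08 had 17.4 ± 1.15 FPKM in ZS11, 8.08 ± 2.08 in SX3, 7.13 ± 0.744 in Zlike and 9.73 ± 1.92 in Slike, and was not called in Slike by DESeq2, without Zlike replicate 3 or without Slike replicate 2. The call for PIP2-7 A08 in Slike was lost without Zlike replicate 1. TIP2-1 A03 had 52.9, 55.6 and 50.7 FPKM in Zlike and 37.2, 37.7 and 39.2 in Slike, so that all Slike libraries lay below those of the other groups and all SX3 libraries above.

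The backcross plants were set against their like-labelled parents as well. These comparisons share the ZS11 or the SX3 libraries with the comparison of the parents, so their values are given side by side only. In Zlike against ZS11, 48 of 73 copies were lower and 11 higher, which is 80.8% called against 46.0% of all genes (22.9% lower, 23.1% higher), and the median log2 change was -0.53 against 0.011 for all genes. At 2-fold or more, 22 were lower and 5 higher, against 4.71% and 4.83% of all genes. In Slike against SX3, 33 were lower and 24 higher, 78.1% called against 53.7% of all genes (23.9% lower, 29.8% higher), with a median of -0.09 against 0.032; at 2-fold or more 8 were lower and 11 higher, against 4.8% and 12.5% of all genes. All 7 tested TIP1 copies were lower in Zlike than in ZS11, with TIP1-1 A04 at -1.05 (SE 0.02) and TIP1-1 C04 at -0.84 (SE 0.02). In Slike against SX3, TIP1-1 A04 was higher by 4.05 (SE 0.04) and PIP1-4 A09 (BnaA09G0003800ZS) by 3.21 (SE 0.09) on the log2 scale, while TIP1-1 C04 was lower (-0.77, SE 0.02).

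Several copies were outside the range of both parents in the backcross plants. Of 67 copies with a mean of at least 1 CPM over the 12 libraries, 18 had all 6 backcross libraries below all 6 parental libraries and 6 had all of them above, in CPM with TMM scaling. These are 26.9% and 8.96% of the copies. Among all genes at that level the shares were 4.65% and 3.21%. Those genes were not matched to the copies for expression level, on which such separation of libraries also depends. In FPKM, 16 of the 18 lay below, without TIP2-1 A03 and PIP2-7 C03, and 7 copies lay above, the 6 and SIP1-1 C05, where all genes had 3.61% and 4.62%. The 16 copies below on both scales were 4 of 7 TIP1, 4 of 18 PIP1, 2 of 21 PIP2, 3 of 7 NIP and 2 of 6 SIP copies and 1 TIP4-1 copy. TIP1-1 C04, with the values above, was one of them.

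TIP1-2 C07 (BnaC07G0297500ZS) had 264, 252 and 267 FPKM in ZS11 and 272, 256 and 257 in SX3, and 121, 119 and 119 FPKM in Zlike and 91.0, 97.3 and 94.4 in Slike. Its parents overlapped (log2 change -0.03, adjusted p = 0.389), while Zlike was lower than ZS11 by a log2 change of -1.20 (SE 0.03) and Slike lower than SX3 by -1.51 (SE 0.04). TIP1-2 A06 was also below both parents in the backcross plants, with 454 ± 3.40 FPKM in ZS11, 390 ± 11.0 in SX3, 254 ± 6.11 in Zlike and 207 ± 3.90 in Slike, but its parents differed (log2 change -0.25, adjusted p = 1.16e-18). NIP6-1 C06 also belonged here, as did NIP6-1 A07, with 1.59 ± 0.245 FPKM in Zlike and 1.07 ± 0.517 in Slike against 3.28 or more in the parents.

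The 6 copies above both parents were PIP2-5 A07, C06 and C08, PIP2-7 A03, PIP2-4 C03 and NIP1-2 C07. PIP2-5 A07 (BnaA07G0190100ZS) had 4.97, 4.87 and 5.33 FPKM in ZS11, 4.26, 4.91 and 5.45 FPKM in SX3, 8.01, 8.64 and 8.13 FPKM in Zlike and 10.9, 11.2 and 11.7 FPKM in Slike. NIP1-2 C07, a relative of an Arabidopsis root channel for aluminium malate, had 4.14 ± 0.0965 FPKM in Zlike and 5.38 ± 0.924 in Slike. Copies on both sides of the parental range thus occurred within PIP2 and NIP, and the TIP1 and PIP1 copies that left the range were all below it, on both scales.

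**Figure D4:**
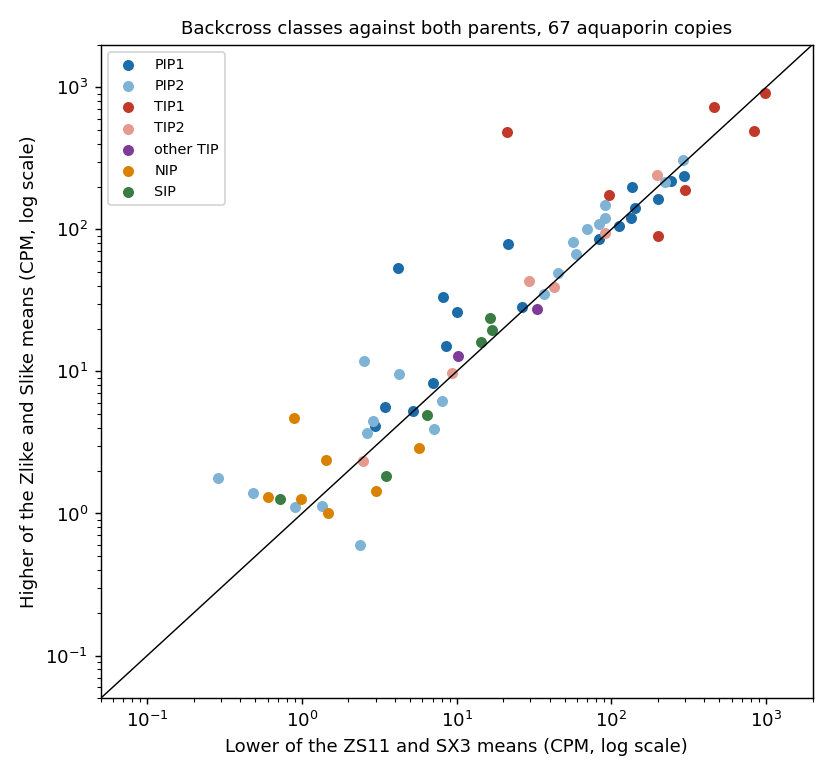
Each of 67 aquaporin copies by the lower of its ZS11 and SX3 means (x axis, CPM, log scale) and the higher of its Zlike and Slike means (y axis, CPM, log scale), coloured by subfamily; the line marks equality, and points below it have both backcross means below both parental means. TIP1-1 C04, TIP1-2 A06 and TIP1-2 C07 are the TIP1 points well below the line, and the TIP1 point far above it is TIP1-1 A04, whose SX3 level was 47.5-fold below ZS11.

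Other transport proteins that work with aquaporins were counted in the same fits. Vacuolar proton pumps, which energise the tonoplast, had 84 lower and 13 higher calls of 125 tested in SX3 against ZS11 (67.2% and 10.4%, against 35.9% and 33.4% of all genes), with a median log2 change of -0.32. In Slike against Zlike 12 were lower and 18 higher of 125 (9.6% and 14.4%), shares near the 13.4% and 13.8% of all genes. Vacuolar sugar transporters had 5 lower and 0 higher of 7 in SX3, and potassium channels and transporters 34 lower and 11 higher of 63 (54.0% and 17.5%). Plasma membrane proton pumps had 13 lower and 11 higher of 32 (40.6% and 34.4%), and boron exporters, which work together with NIP5-1 and NIP6-1, 5 lower and 4 higher of 12 (41.7% and 33.3%), both near the shares of all genes. In Slike these lists had 1 lower and 1 higher of 7, 7 and 8 of 66, 5 and 9 of 30, and 0 and 4 of 12.

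Single genes of these lists had copies with opposed changes as well. VHA-G1, a subunit of the vacuolar proton pump, had log2 changes of -4.30 in SX3 against ZS11 and -0.52 in Slike against Zlike for its C01 copy. Its A01 copy went from 0.112 ± 0.193 FPKM in ZS11 to 88.7 ± 1.69 in SX3, and was higher in Slike by 1.39 on the log2 scale. The A07 copy of the plasma membrane pump AHA1 was higher in both comparisons, by 1.15 and 0.60. Its A04 copy had 25.01 ± 0.481 FPKM in ZS11 and no count in SX3, and was lower in Slike by a log2 change of -0.89. POT4 (A01), a potassium transporter, had no count in ZS11 and 9.48 ± 0.711 FPKM in SX3, and was higher in Slike by 1.58 on the log2 scale. POT4 starts at 37326087 on A01, near the A01 copy of VHA-G1 at 37245112. The part of chromosome segments in the changes of these companion genes was not tested. POT8 (C02) was lower in SX3 (-5.41) and POT2 (C04) lower in Slike (-0.45). Of the boron exporters, BOR3 (C03) was higher in SX3 (0.67) and BOR1 (A03) lower in SX3 (-1.96). BOR2 (C04) was higher in Slike (1.78, SE 0.4) at a low level, 0.157 ± 0.0605 FPKM in Zlike and 0.537 ± 0.0975 in Slike. The remaining named genes changed by less than 1 on the log2 scale in SX3 or Slike: AHA2 (C01; -0.13 and 0.11), MSSP1 (C08; -0.48 in SX3), MSSP1 (A08; 0.27 in Slike), MSSP1 (C05; -0.42 in Slike), MSSP2 (A01; -0.85 in SX3) and KAB1 (C08), with 0.09 in SX3 and -0.04 in Slike, neither of them called.

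For the parental lines, the authors' deposited table lists 27 of the aquaporin copies, of which 26 were called here. In the authors' deposited table the word for up-regulation stands beside 22 of them, all of which were lower in SX3 by the counts, so that its direction there is that of ZS11 over SX3. The listed copy not called here, NIP3-1 A05 (BnaA05G0329300ZS), had too few counts to be tested. It had 0 FPKM in ZS11 and means of 2.08 in SX3, 0.368 in Zlike and 1.27 in Slike, at a deposited length of 318 bases. The authors' deposited table for Slike and Zlike lists 2 copies, of which NIP6-1 C06 was called here and NIP2-1 A05 had too few counts to be tested.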

How the data were processed

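Per the submitters' processing notes, fastp, HISAT2 and featureCounts were used, with no versions; what is not given in the sources used here is the genome build, the strand setting and the treatment of reads with several matches. The authors deposited raw counts per gene for all 12 libraries, with gene length, position and protein names, and FPKM values; recomputing FPKM from the deposited counts and lengths gave a largest relative deviation of 8.4e-15. The deposited tables of differential genes give the authors' direction word as other text, which was only counted.

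The count tests used edgeR 4.0.16 (R 4.3.3): filterByExpr, TMM scaling, quasi-likelihood fits on the whole table and Benjamini-Hochberg adjustment over all genes tested. The 2 main comparisons used their own 6 libraries each. The difference of differences and the comparisons of each backcross group with a parent used all 12. An adjusted p below 0.05 is a call, and log2 changes are positive where the first-named group is higher. The SE of a log2 change was derived from the test, as its absolute value over the square root of the F statistic. The fits were tested on simulated counts with 200 changed genes and the same dispersion for all genes. They recovered 93% (SX3 against ZS11) and 92% (Slike against Zlike) of the 2-fold changes. False calls were 5.88% and 5.45% of the calls. Far more genes were called in the real data, so the simulation does not cover that setting. Alternatives were other scalings, DESeq2 1.42.0, no filter, a replicate block, 1 fit over 12 libraries, leaving out each library and, chosen after seeing the data, counts summed per protein name and FPKM for the copies outside the parental range.

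Members and lists were chosen with earlier results of these data known. Copies named are the 3 highest per subfamily, the 5 higher and 5 lower calls with the smallest p in each main comparison, those at 0 in 1 group and 1 CPM or more in another, and those called in opposite directions. Copies outside the range of both parents, NIP5-1, NIP3-1 A05, TIP1-1 C03, PIP1.1 A04 and PIP2-2 A05 were added after their values were seen. From the 5 companion lists the highest gene and the strongest call in each direction are named. Chi-square values of counts per gene between replicates were 1.35 to 1.47, so no library was a copy of another. They also show a spread between replicates not far above counting noise. Whether the libraries came from separate plants cannot be told from this, so small p-values are not to be read as measuring a spread between plants.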

Additional observations from a re-analysis of the deposited data

Results flagged for a closer look

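The named copies below changed differently between Slike and Zlike than between SX3 and ZS11, by edgeR's test of the difference of the log2 changes, (Slike over Zlike) minus (SX3 over ZS11), adjusted over all genes. Groups of 3 libraries are too small for a check of single libraries that stand apart.

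In PIP1 the difference was 3.86 for PIP1-4 A09 (BnaA09G0003800ZS), 0.89 for PIP1-4 A05, 0.27 for PIP1-4 A09 (BnaA09G0012100ZS) and 0.24 for PIP1-4 A03. It was 1.60 for PIP1-2 C08, 0.65 for PIP1-2 C03 and 0.57 for PIP1-2 A04. PIP1-3 had 1.45 for its A10 copy and -2.62 for its A09 copy. In PIP2 it was 2.60 for PIP2-2 C04, 2.41 for PIP2-1 A09, 0.56 for PIP2-7 A01 and 0.19 for PIP2-7 A08. Negative values were -0.84 for PIP2-7 C07, -0.57 for PIP2-7 C01, -0.64 for PIP2-6 A03, -0.65 for PIP2-6 C03 and -0.65 for PIP2-5 C06; the last was not called without ZS11 replicate 1 (adjusted p = 0.0558).

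In the TIPs the difference was 5.10 for TIP1-1 A04, 0.61 for TIP1-2 A02, 1.07 for TIP2-1 A05, 0.84 for TIP2-1 C03, 0.54 for TIP2-1 C01 and -0.86 for TIP2-1 A03. TIP4-1 had 1.68 for C04 and 0.53 for A04. TIP1-1 C04 had 0.07 (adjusted p = 0.0403), which lost its call in 10 alternatives: RLE scaling (0.05), upper-quartile scaling (0.01), DESeq2 (0.05), and without ZS11 replicate 1 or 3, SX3 replicate 2 or 3, Zlike replicate 1, or Slike replicate 1 or 3, where it was 0.05 to 0.07.

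Among NIPs it was 1.45 for NIP1-2 C07 and -4.01 for NIP2-1 A05 (SE 1.61, adjusted p = 0.0283). The latter had no count in ZS11, so that its value depends on the prior count, and it was not called without ZS11 replicate 1, 2 or 3 or Zlike replicate 1. Among SIPs it was 0.50 for SIP2-1 A07, 0.42 for SIP1-1 C05 and 0.40 for SIP2-1 C06.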

How the results depend on the processing

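Counts of called copies stayed within 1.5 times the reported ones with other scalings, DESeq2, no filter, 1 fit over 12 libraries and each library left out. DESeq2 called 59 copies in SX3 against ZS11, 31 in Slike against Zlike and 49 in the difference. With upper-quartile scaling, 15 copies were higher and 47 lower in SX3, where the split of all genes was 18425 to 16576. Replicate numbers did not pair the libraries: the correlation of deviations of same-numbered libraries lay between -0.00716 and 0.00597. With the replicate block, 62 copies were called in SX3 against ZS11 and 36 in Slike against Zlike.

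Summed per protein name, counts gave 21, 11, 19, 17 and 15 called types for SX3 against ZS11, Slike against Zlike, the difference, Zlike against ZS11 and Slike against SX3; these are fewer because types, not copies, are counted. On the FPKM scale in place of TMM-scaled CPM, the log2 ratio of summed levels was -0.13 for PIP1 (Slike over Zlike; -0.10 in CPM), -0.61 for TIP1 and -0.87 for the other TIPs (SX3 over ZS11; -0.66 and -0.91 in CPM).

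Of 2319 alternative values for 184 results on named copies, 2232 kept direction and call, 67 lost the call, 8 gained it and 12 turned sign, all of these 12 without a call. In Slike against Zlike they were TIP1-1 C04 without Slike replicate 2 (0), SIP1-1 C05 without Zlike replicate 1 (-0.03) or Slike replicate 3 (-0.06), and SIP2-1 C06 without Slike replicate 3 (-0.03). In the difference they were NIP6-1 A07 without Slike replicate 2 (-0.09), TIP1-2 C02 with upper-quartile scaling (-0.02), and PIP2-7 C03 without ZS11 replicate 1 (0), SX3 replicate 1 (0.01) or Zlike replicate 2 (0.01). The others were PIP2-7 C01 in Zlike against ZS11 without ZS11 replicate 1 (0.01) and NIP2-1 A05 in Slike against SX3 without SX3 replicate 2 (0.15) or Slike replicate 2 (0.12). Over the libraries left out, values ran from -0.01 to 0 for TIP1-1 C04, -0.06 to 0.09 for SIP1-1 C05, -0.03 to 0.06 for SIP2-1 C06, -0.09 to 0.63 for NIP6-1 A07, -0.03 to 0.01 for PIP2-7 C03, -0.08 to 0.01 for PIP2-7 C01 and -0.45 to 0.15 for NIP2-1 A05. On the FPKM scale, chosen after seeing the data, 16 copies in place of 18 had all backcross libraries below the parents and 7 in place of 6 above. The causes were not tested. Depth limits the rarest copies: 24 of 38 NIP and 13 of 16 other TIP copies never passed 3 counts in a library, and NIP2-1 A05 rests on means under 2 FPKM.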
